A study of Mus musculus with 6 samples.

Results

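Granule genes of 2 blood cell types, neutrophils and mast cells, were followed in RNA from embryonic mouse dorsal pancreas with and without Bicc1. They comprised 10 of the 24389 genes in the deposited tables: 6 genes of neutrophil granules and their stefins (S100a8, S100a9, Ngp, Camp, Stfa1 and BC100530) and 4 genes of mast cell proteases (Cma1, Mcpt4, Tpsb2 and Cpa3). They were selected by name from values of the same comparison of Bicc1 KO with WT, so their own differences between the genotypes are given as a description, without a test. All were matched by Ensembl identifier.

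The tissue came from E13.5 embryos (staged in days of gestation) on a mixed C57BL/6 and ICR background. There were 3 libraries of Bicaudal C1 knockout embryos (KO 1 to KO 3) and 3 of WT embryos (WT 1 to WT 3). Bicc1 encodes an RNA-binding protein, and the labels do not say how the allele was made, in which cells it was lost, or whether a library held 1 embryo or a pool. The values in the text are a non-negative signal per gene whose unit is not stated, with a floor of 0.01, so a gene is compared between libraries and not with other genes.

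Neutrophils and mast cells are white blood cells that store proteins in cytoplasmic granules. Neutrophils fill primary granules early in their maturation and specific granules later, and neutrophil cytosol is rich in the calcium-binding pair S100a8 and S100a9. Mast cells store chymases, tryptases and a carboxypeptidase, and depend on the receptor Kit and its ligand. Both cell types arise from blood progenitors and are minor in an organ bud that is mostly epithelium and mesenchyme.

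Bicc1 itself was 3.96, 4.91 and 4.48 in KO 1, KO 2 and KO 3, against 19.7, 19.5 and 18.2 in WT 1, WT 2 and WT 3. Limma was run on the 13911 genes whose mean over the libraries reached 1, and 2 passed at an adjusted p of 0.05 (0.0144%). Neither was a granule gene, from which nothing is read: the comparison chose those genes, and Camp, Mcpt4 and Tpsb2 were below that mean. Run on all 24389 genes it passed 1 (0.0041%), Bicc1. The pancreatic factor Pdx1 averaged 11.7 ± 1.98 over KO libraries and 12.0 ± 0.588 over WT libraries (SD, n = 3 each), and Ptf1a and Sox9 were likewise present in all libraries. On the first principal component of the tested genes, which carried 57.3% of the variance, 3 libraries (KO 1, KO 2 and WT 3) lay apart from KO 3, WT 1 and WT 2. The GC content of genes followed this division, with Spearman's rho across genes between GC and the deviation of a library from 0.40 to 0.61 in the first 3 libraries and from -0.66 to -0.19 in the others. Each side held both genotypes, so differences are also given within a side.

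The neutrophil genes were low in every KO library and higher in every WT library. S100a8, a subunit of calprotectin, was 1.33, 1.02 and 1.48 in KO 1, KO 2 and KO 3, against 3.86, 6.58 and 14.1 in WT 1, WT 2 and WT 3. The groups did not overlap, the KO libraries were close to each other, and WT 3 stood well above the other WT libraries. The mean of 1.28 ± 0.236 in KO was 15.6% of the mean of 8.19 ± 5.32 in WT (SD, n = 3 each).

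S100a9, the partner subunit, was 1.82, 1.73 and 2.94 in the KO libraries, against 6.75, 10.7 and 21.8 in the WT libraries. The order of the libraries within WT was that of S100a8. It averaged 2.16 ± 0.675 in KO libraries and 13.1 ± 7.83 in WT libraries (SD, n = 3 each), so KO reached 16.5% of WT. The ratio of S100a9 to S100a8 moved little, between 1.37 in KO 1 and 1.98 in KO 3, and the WT libraries lay inside that range at 1.55 to 1.75. S100a8 and S100a9 are adjacent on chromosome 3, with 0 protein-coding genes between them in the RefSeq annotation of build GRCm38.p6.

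Ngp and Camp encode cathelicidin-family proteins of specific granules, and Camp is the precursor of the antimicrobial peptide CRAMP. Ngp was 0.308, 0.461 and 0.419 in KO, against 1.34, 2.81 and 5.14 in WT. Camp was 0.0608, 0.0994 and 0.154 in KO, against 0.434, 0.494 and 2.12 in WT. Neither gene had overlapping groups, and WT 3 was again the highest library. The KO mean was 12.8% of the WT mean for Ngp and 10.3% for Camp. Both genes lie on chromosome 9, with 8 other protein-coding genes between them.

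The stefins are cytosolic inhibitors of cysteine proteases such as cathepsins. Stfa1 was 0.294, 0.283 and 0.332 in KO, against 0.651, 1.34 and 5.17 in WT. BC100530 was 0.518, 0.380 and 0.644 in KO, against 2.48, 1.80 and 6.47 in WT. Every KO value of both stefins lay below every WT value, and the KO means were 12.7% and 14.4% of the WT means. Their WT libraries ranked differently: WT 1 was below WT 2 for Stfa1 and above it for BC100530, and the ratio of BC100530 to Stfa1 was 3.81 in WT 1 against 1.25 to 1.94 in the other 5 libraries. These genes are near-identical copies in part. Of all stretches of 50 bases in the GENCODE M21 transcripts, 22.5% of those of Stfa1 and 36.2% of those of BC100530 also occur in another gene, each other included, against 0% for S100a8, S100a9, Ngp and Camp. How the authors assigned such reads is not given in the sources used here, so the division of signal among the stefins is uncertain.

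**Figure D1:**
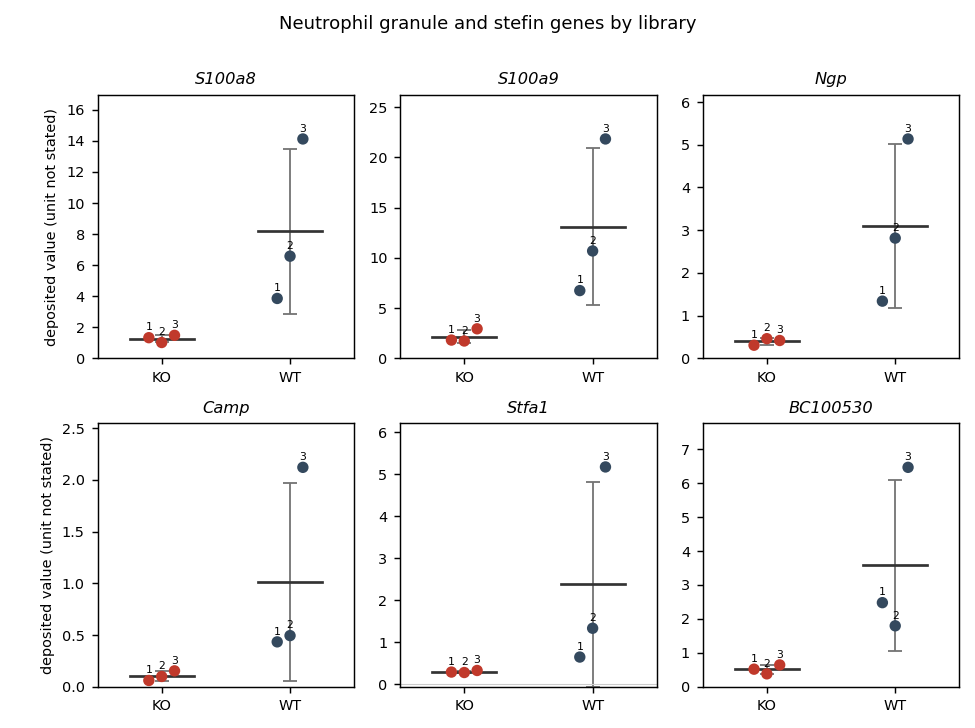
Deposited value (unit not stated, linear axis from 0 or below where an error bar reaches below 0) of the 6 neutrophil granule and stefin genes in the 3 KO and 3 WT libraries. Points are libraries with their replicate number, horizontal lines are the mean and error bars the SD. All KO points lie below all WT points in all 6 genes, and WT 3 is the highest point in each.

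Across the 6 neutrophil genes, each KO value was below the whole WT range in 6, where this held for 6.33% of all 24389 genes. This contrast chose the genes, so nothing is read from that count. The KO mean was between 10.3% and 16.5% of the WT mean. The library WT 3 alone held between 47.7% and 64.1% of the sum of a gene over all libraries and was 2.61 to 7.95 times WT 1. The lowest WT value was still 1.96 to 2.91 times the highest KO value. The median difference of mean log2(value + 1), KO minus WT, was -1.46 over the 6 genes, and 0.01 over all genes in the tables. Without WT 3 the median was -1.07. On the side of KO 1, KO 2 and WT 3 it was -2.31. On the side of KO 3, WT 1 and WT 2 it was -0.999. In bulk RNA, fewer cells of a type and less RNA per cell cannot be told apart.

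Windows of 250 bases before the start of transcription are shown for S100a8, S100a9 and Ngp, since these genes moved together and hold matches to the binding motif of the C/EBP factors, which drive granulocyte maturation. They are from RefSeq on build GRCm38.p6, 5′ to 3′, and the deposited files are on mm9. Capitals mark matches, on either strand, to the C/EBP motif TTNNGNAA and to the TATA box TATAAA.
S100a8 (chr3:90668821-90669070, plus strand): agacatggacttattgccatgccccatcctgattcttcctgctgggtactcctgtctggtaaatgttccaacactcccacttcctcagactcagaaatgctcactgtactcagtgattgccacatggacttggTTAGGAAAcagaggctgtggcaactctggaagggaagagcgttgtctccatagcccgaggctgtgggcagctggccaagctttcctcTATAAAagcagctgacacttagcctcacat
S100a9 (chr3:90695722-90695971, minus strand): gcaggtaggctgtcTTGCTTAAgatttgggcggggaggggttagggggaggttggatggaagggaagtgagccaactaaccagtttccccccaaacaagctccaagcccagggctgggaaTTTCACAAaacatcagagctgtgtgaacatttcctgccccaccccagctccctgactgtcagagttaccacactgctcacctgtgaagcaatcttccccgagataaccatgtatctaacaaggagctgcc
Ngp (chr9:110419558-110419807, plus strand): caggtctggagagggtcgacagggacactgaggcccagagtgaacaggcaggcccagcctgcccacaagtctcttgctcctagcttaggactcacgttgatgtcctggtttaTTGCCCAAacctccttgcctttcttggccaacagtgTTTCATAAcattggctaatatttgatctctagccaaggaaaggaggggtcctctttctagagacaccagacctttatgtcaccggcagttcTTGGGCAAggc
The C/EBP motif was found in 4 of the 5 neutrophil genes with a window (S100a8, S100a9, Ngp and Stfa1, not Camp), and in 36.8% of all 32851 windows of the same length. S100a8 holds 1 match, from base -117 to -110 (counted back from -1, the base before the start), S100a9 holds 2 and Ngp holds 3. The TATA box was found in 1 of the 5, S100a8, and in 12.4% of all windows. A match of the letters GAGGAA, the core bound by PU.1, was found in 2 of the 5 (23.3% of all windows). No matches of different motifs overlapped. A match is a description of the sequence and not a measured binding site. The RefSeq table was matched by symbol for 8 of the 10 granule genes, without BC100530 and Tpsb2.

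Other stefins of the same cluster, which were not among the chosen genes, were lower in KO too. Of 10 listed, 5 were measured, and each KO value was below the whole WT range in 5 of these 5 (6.33% of all genes). Stfa3 was 0.0529, 0.0721 and 0.235 in KO, against 0.567, 0.681 and 1.62 in WT. Gm5483 was 0.175, 0.265 and 0.254 in KO, against 1.0, 0.925 and 2.45 in WT. Stfa2 and Stfa2l1 had KO means of 8.85% and 16.3% of their WT means, and WT 3 was the highest WT library in all 5. The median difference of mean log2(value + 1) was -0.67. The values had a mean under 1, so none was in the test on genes above that level. In limma without a filter on low values, 0 of the 5 passed at an adjusted p of 0.05 and 4 had an unadjusted p under 0.05, where 3.98% of all genes were lower at that level. The lowest adjusted p of the 5 was 0.494. Reads shared with Stfa1 and BC100530 may be counted in some of these genes, so they are not independent of them.

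Among 26 other listed proteins of neutrophil granules and of the oxidase complex, 26 were measured, and each KO value was below the whole WT range in 5 (6.33% of all genes) and above it in 0 (7.62% of all genes). The median difference of mean log2(value + 1) was -0.05. The mean was lower in KO in 17 genes and higher in 9. Among the 9 were Cyba, at 117% of the WT mean, and Mmp9, at 138%, both with overlapping groups. Lower genes numbered 24 of 26 within KO 1, KO 2 and WT 3, but 10 within KO 3, WT 1 and WT 2, and 13 without WT 3. Some of those with lower values are proteins of specific granules. Ltf, which encodes the iron-binding lactoferrin, was 0.0576, 0.0737 and 0.154 in KO, against 0.228, 0.448 and 0.870 in WT. Chil3, a chitinase-like protein, was 0.327, 0.01 and 0.646 in KO, against 0.937, 1.001 and 1.85 in WT. Both had groups that did not overlap, with WT 3 highest. Lcn2 (an iron-siderophore binder) and Mmp8 (a collagenase) had KO means of 25.8% and 27.96% of the WT means, but the groups overlapped. Olfm4, a specific granule protein outside the list, was 0.129, 0.204 and 0.257 in KO, against 1.02, 1.12 and 2.85 in WT.

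Genes of primary granules had overlapping groups. Mpo (myeloperoxidase) was 0.643, 0.0339 and 0.686 in KO, against 0.293, 0.315 and 0.915 in WT. Elane, the elastase, was 0.108, 0.01 and 0.05002 in KO, against 0.0620, 0.0196 and 0.219 in WT. WT 3 was the highest of all libraries in both, and KO 2 was the lowest KO library. For the proteases Prtn3 and Ctsg the KO means were 106% and 194% of the WT means, also with overlapping groups. WT 3 was the highest library in 3 of these 4 genes, all but Ctsg. The genes named for either kind of granule were picked after seeing their values, Olfm4 for its likeness to the neutrophil profile, so nothing is read from them about a granule type, and a difference between the types was not tested.

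Of the 26, only Lyz2, Cyba, Lyz1 and Ncf1 had a mean value of at least 1. Limma passed 0 of these 4 at an adjusted p of 0.05, with 0 at an unadjusted p under 0.05, where 4.36% of tested genes were lower at that level. Lysozyme Lyz2, which macrophages also make, was 12.6 ± 4.67 in KO libraries and 14.8 ± 1.69 in WT libraries (SD, n = 3 each), with overlapping groups. Without the filter 0 of 26 passed, and 4 were lower at an unadjusted p under 0.05: Ltf, Chil3, Fcnb and Slpi.

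Receptors and other surface markers of neutrophils came next. Each KO value was below the whole WT range in 3 of 14, namely Cxcr2, Fpr1 and Fpr2 (6.33% of all genes), and above it in 0. The median difference of mean log2(value + 1) was -0.03, with a lower mean in KO in 11 genes and a higher one in 3. This direction depends on the libraries: 13 of 14 were lower within KO 1, KO 2 and WT 3, but 6 of 14 within KO 3, WT 1 and WT 2. Itgb2, Itgam and Fcgr4 had KO means of 95.2%, 89.5% and 146% of the WT means, with overlapping groups. Fpr2, a receptor for formylated peptides, was 0.0297, 0.0502 and 0.0536 in KO, against 0.183, 0.148 and 0.199 in WT, a KO mean of 25.2% of the WT mean in which WT 3 did not stand apart. Without the filter limma gave Fpr2 an adjusted p of 0.365, and 0 of the 14 genes passed, with 3 lower at an unadjusted p under 0.05 (3.98% of all genes). The defining marker Ly6g lay between 0.01 and 0.0454 in KO and between 0.01 and 0.0714 in WT. Fcgr3, an Fc receptor shared with macrophages, was 16.7, 10.6 and 22.2 in KO, against 13.8, 12.4 and 14.3 in WT. It was the only one with a mean of at least 1, and limma gave it an adjusted p of 0.663.

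Transcription factors of the granulocyte lineage did not pass the test: 0 of the 5 tested had an adjusted p under 0.05 in limma. At an unadjusted p under 0.05 in limma there were 0, where 4.36% of tested genes were lower and 5.89% higher. Cebpa was 3.29, 3.34 and 2.59 in KO, against 3.54, 3.44 and 3.69 in WT. Its groups did not overlap, but the KO mean was 86.4% of the WT mean. Cebpe, which drives the specific granule genes, was at or near the floor, from 0.01 to 0.0141 in KO and from 0.01 to 0.0348 in WT. Gfi1, a repressor used by neutrophil progenitors, averaged 1.96 ± 0.563 in KO libraries and 2.26 ± 0.332 in WT libraries (SD, n = 3 each).

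**Figure D2:**
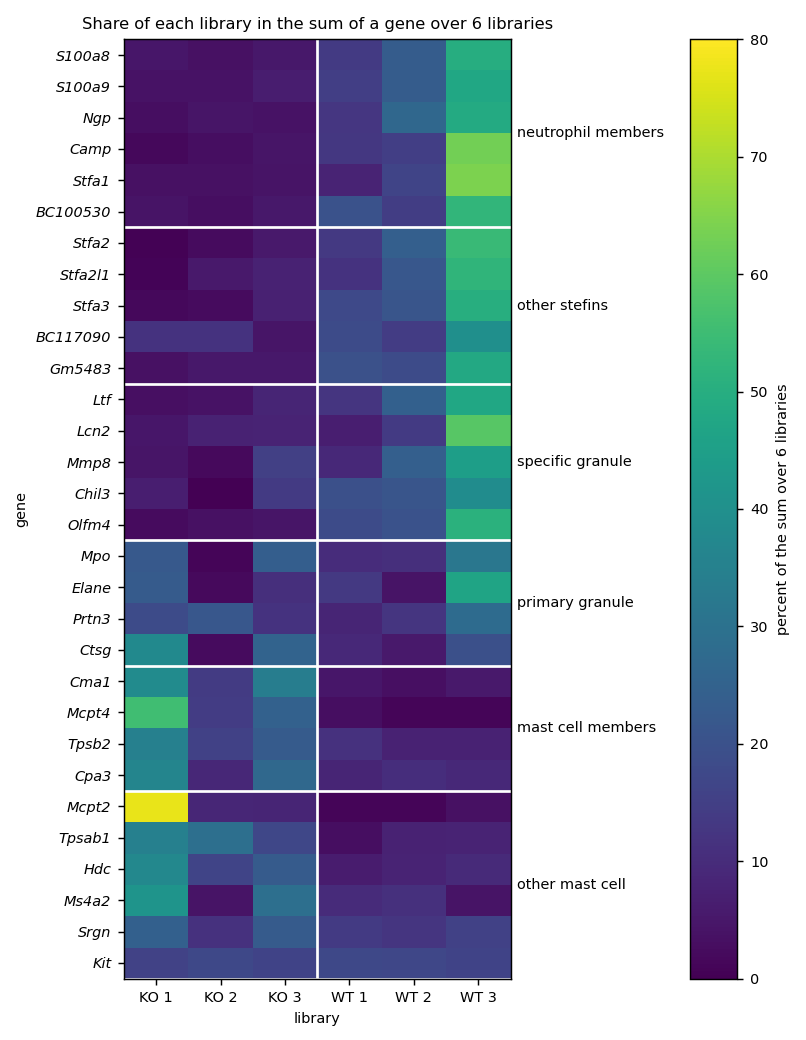
Share of each library (columns, KO left of WT) in the sum of a gene over the 6 libraries (rows), in percent. In the neutrophil genes, other stefins and specific granule genes most of the signal falls in WT libraries and the largest share in WT 3, whereas the 4 chosen mast cell proteases have the largest share in KO 1. Specific and primary granule genes were picked after seeing their values, so nothing is read from them about a granule type.

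The mast cell genes ran the other way, with higher values in KO and a wide spread within KO. Cma1, a chymase of connective tissue mast cells, was 3.27, 1.17 and 2.89 in KO 1, KO 2 and KO 3, against 0.416, 0.287 and 0.466 in WT 1, WT 2 and WT 3. The groups did not overlap, and KO 2 lay nearest to WT. The KO mean of 2.45 ± 1.12 was 6.28 times the WT mean of 0.390 ± 0.0924 (SD, n = 3 each). Cma1 shares 5.38% of its 50-base stretches with another annotated gene.

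Cpa3, the carboxypeptidase of mast cell granules, was 4.45, 1.08 and 3.31 in KO, against 1.02, 1.27 and 1.14 in WT. Here KO 2 lay inside the range of WT, so the groups overlapped. The KO mean of 2.95 ± 1.72 was 2.57 times the WT mean of 1.15 ± 0.125 (SD, n = 3 each).

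Tpsb2, a tryptase, was 0.518, 0.228 and 0.340 in KO, against 0.169, 0.115 and 0.113 in WT. The groups did not overlap, and the lowest KO value was 1.35 times the highest WT value. The difference of mean log2(value + 1) was 0.26, and 0.07 with a correction for GC content. Mcpt4, another chymase, was 0.455, 0.116 and 0.205 in KO and 0.0252 in WT 1, and was listed at the floor of 0.01 in WT 2 and WT 3, so no fold is given. Cma1 and Mcpt4 lie in 1 chymase cluster on chromosome 14, with 4 protein-coding genes between them. Mcpt4 shares 5.48% of its 50-base stretches with Cma2 or Mcpt9, and Tpsb2 and Cpa3 share 0%.

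**Figure D3:**
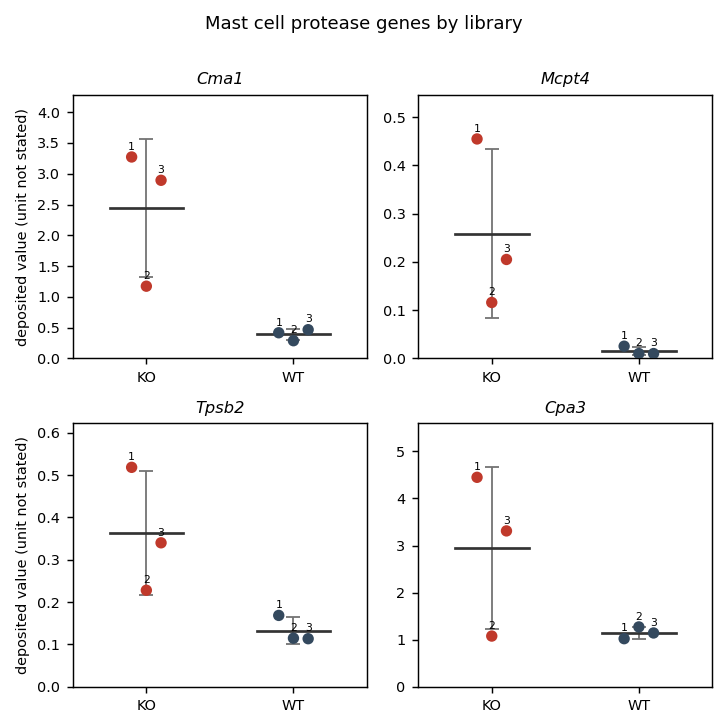
Deposited value (unit not stated, linear axis from 0) of the 4 mast cell protease genes in the 3 KO and 3 WT libraries. Points are libraries with their replicate number, horizontal lines are the mean and error bars the SD. KO 1 is the highest and KO 2 the lowest KO point in each gene, and in Cpa3 KO 2 lies among the WT points.

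Over the 4 mast cell genes, KO 1 was the highest library in 4 and KO 2 the lowest KO library in 4. Each KO value was above the whole WT range in 3 of 4, where this held for 7.62% of all genes, a count from which nothing is read because the contrast chose the genes. The median difference of mean log2(value + 1) was 0.54, and it was 0.78 without KO 2 and 0.34 without KO 1. It was 0.49 on the side of KO 1, KO 2 and WT 3, and 0.63 on the other. The genes did not keep a fixed ratio: Cpa3 over Cma1 was 0.918 to 1.36 in KO and 2.45 to 4.43 in WT. A sum over the 4 genes was 8.70, 2.59 and 6.75 in KO, against 1.63, 1.68 and 1.73 in WT, so the spread lay in the KO libraries. For the neutrophil genes the spread lay in WT, with sums of 4.34, 3.98 and 5.98 in KO, against 15.5, 23.7 and 54.9 in WT. WT 3, with the most neutrophil signal, had a mast cell sum close to those of WT 1 and WT 2.

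The window of 250 bases before the start of Cpa3 is shown because Cpa3 is 1 of the 3 mast cell genes with a window, and the only one with a match to AGATAA, a motif of GATA factors, which mast cells need. Capitals mark AGATAA and TATAAA on either strand, on build GRCm38.p6 from RefSeq.
Cpa3 (chr3:20242182-20242431, minus strand): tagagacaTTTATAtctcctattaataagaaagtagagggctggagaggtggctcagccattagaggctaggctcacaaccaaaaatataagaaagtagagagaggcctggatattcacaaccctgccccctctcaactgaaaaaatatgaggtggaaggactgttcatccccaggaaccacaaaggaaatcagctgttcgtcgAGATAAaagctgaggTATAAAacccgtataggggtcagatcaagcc
AGATAA was found in 1 of the 3 windows, and in 9.99% of all 32851 windows, and TATAAA in 2 of the 3, Mcpt4 and Cpa3. AGATAA also occurred in 2 of the 5 neutrophil genes with a window, and the C/EBP motif in 0 of the 3 mast cell genes.

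Other mast cell proteases were at low values, with 8 of 10 listed measured and 0 of these at a mean of at least 1. Each KO value was above the whole WT range in 3 of the 8 (7.62% of all genes) and below it in 0, and the median difference of mean log2(value + 1) was 0.07. The direction of the list depends on the processing: 1 of the 8 was lower in KO as given here, but 5 of 8 with a correction for GC content, and 4 of 8 without KO 1. Mcpt2, a chymase of the same cluster, was 0.7496, 0.0824 and 0.0806 in KO, against 0.01, 0.01 and 0.0360 in WT, so KO 1 set its KO mean. Gzmb, a serine protease also of lymphocytes, was 0.1496, 0.0892 and 0.202 in KO, against 0.0584, 0.0249 and 0.0619 in WT. Tpsab1, the second mast cell tryptase, chosen after its values were seen, was 0.117, 0.0984 and 0.0571 in KO, against 0.01, 0.0255 and 0.0270 in WT. In limma without a filter 0 of the 8 passed at an adjusted p of 0.05, with 2 higher at an unadjusted p under 0.05, where 5.44% of all genes were higher at that level.

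As a list, receptors and mediators of mast cells had a median difference of mean log2(value + 1) of 0.02, close to the 0.01 of all genes. Of 15 measured, each KO value was above the whole WT range in 2, Hdc and Alox5 (7.62% of all genes), and below it in 0. Hdc, the enzyme that makes histamine, was 0.501, 0.220 and 0.309 in KO, against 0.0840, 0.105 and 0.127 in WT. Without the filter limma gave Hdc an adjusted p of 0.494. Kit, which epithelial and other cells also carry, was 6.94 ± 0.342 in KO libraries and 7.08 ± 0.254 in WT libraries, and Srgn, the proteoglycan of granules, was 2.96 ± 1.09 in KO libraries and 2.09 ± 0.250 in WT libraries (SD, n = 3 each). The 2 genes of the IgE receptor that other cells mostly lack were low: Ms4a2 was 0.199, 0.0199 and 0.141 in KO, against 0.0476, 0.0531 and 0.0199 in WT, and Fcer1a was at or near the floor in all libraries. Of 6 genes tested, 0 passed limma at an adjusted p of 0.05 and 0 had an unadjusted p under 0.05 (4.36% of tested genes lower and 5.89% higher).

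Of 4 transcription factors used by mast cells, 2 had a higher mean in KO and 2 a lower one. Each KO value was above the whole WT range in 2, Gata2 and Bhlhe40 (7.62% of all genes). Gata2, a transcription factor of mast cell progenitors, was 0.913, 0.716 and 0.740 in KO, against 0.674, 0.527 and 0.673 in WT. Gata1 averaged 0.119 in KO libraries and 0.135 in WT libraries, with overlap. Mitf, which mast cells and other cells use, had overlapping groups. In limma 0 of the 2 tested factors passed, with 0 at an unadjusted p under 0.05 (4.36% of tested genes lower and 5.89% higher). The Kit ligand gene Kitl was 19.8, 16.8 and 24.8 in KO, against 13.7, 16.1 and 13.01 in WT. It did not pass limma (log2 difference 0.48, SE 0.142, adjusted p 0.469). Cxcl12, a ligand that retains granulocytes and progenitors, was 45.6 ± 3.08 in KO libraries and 50.7 ± 3.56 in WT libraries (SD, n = 3 each), and Csf3, the neutrophil growth factor, was at or near the floor throughout. Of 12 ligands measured, 7 had a higher mean in KO and 4 a lower one. Each KO value was above the whole WT range in 3, Kitl, Cxcl2 and Cxcl5 (7.62% of all genes), and below it in 0. Cxcl2 was near the floor, at 0.0367, 0.0122 and 0.0124 in KO, against 0.01 in each WT library. Cxcl5 was 0.370, 0.284 and 0.273 in KO, against 0.129, 0.251 and 0.115 in WT. Of the 4 ligands tested, 0 passed limma at an adjusted p of 0.05 and 1, Kitl, had an unadjusted p under 0.05, where 5.89% of tested genes were higher at that level.

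Eosinophil and basophil genes were near the floor, with sums over 11 genes of 0.263 to 0.583 in KO and 0.521 to 0.553 in WT. All 11 had overlapping groups, where 6.33% of all genes had KO wholly below WT and 7.62% wholly above. The sum over 7 genes of all leukocytes was 20.03 to 26.9 in KO and 19.5 to 24.7 in WT. Ptprc, which marks all white blood cells, averaged 0.749 ± 0.195 in KO libraries and 0.748 ± 0.0203 in WT libraries (SD, n = 3 each). Of 14 macrophage genes, 2 (Cd68 and Tyrobp) had non-overlapping groups with KO above WT (7.62% of all genes) and 1 (Lyve1) with KO below WT (6.33% of all genes), and their sum was 75.8 to 84.1 in KO and 67.3 to 78.0 in WT. The sum over 12 erythroid genes, which overlapped between the groups, was 2674 to 4795 in KO and 2142 to 4330 in WT, with WT 3 the highest WT library, as it was in the neutrophil genes. The part of blood content in the neutrophil values was not tested. Keratinocyte genes were listed because skin also makes S100a8, S100a9 and stefins. Of 8, 0 had each KO value below the whole WT range (6.33% of all genes). In 1 (Lor) each KO value was above it (7.62% of all genes). So few genes give counts near those shares, and the part of skin was not tested. Of the 13 macrophage genes tested, 0 passed limma at an adjusted p of 0.05, while 5 were higher (C1qa, C1qb, C1qc, Cd68 and Tyrobp) and 1 was lower (Lyve1) at an unadjusted p under 0.05, where 5.89% of tested genes were higher and 4.36% lower. Their part in the granule gene values was not tested. In the 4 tested leukocyte genes and the 9 tested erythroid genes, 0 passed limma, with 0 at an unadjusted p under 0.05, beside the same shares of tested genes.

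**Figure D4:**
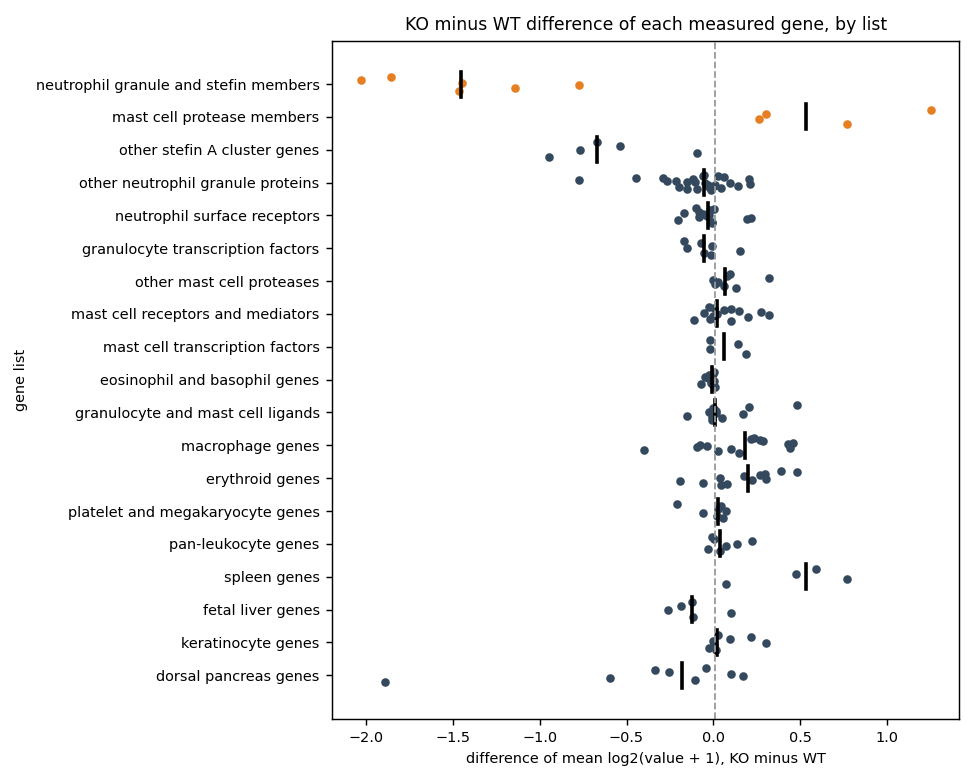
Difference of mean log2(value + 1), KO minus WT (horizontal axis), for each measured gene of the lists (rows). Points are genes, thick ticks are list medians, orange marks the 10 chosen genes and the dashed line is the median of all genes. The neutrophil genes and other stefins lie left of the line, the mast cell proteases and spleen genes right of it, and most other lists straddle it.

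Of 4 genes of spleen and adjoining mesenchyme, 4 had a higher mean in KO and 2 had non-overlapping groups with KO above WT (7.62% of all genes). Of 5 fetal liver genes, 4 had a lower mean in KO and all 5 had overlapping groups (6.33% of all genes had KO wholly below WT and 7.62% wholly above). Nkx2-5, a factor of spleen and pyloric mesenchyme, was 0.408, 0.315 and 0.770 in KO, against 0.0313, 0.0501 and 0.131 in WT. Barx1, a factor of stomach and spleen mesenchyme, was 5.04, 3.14 and 2.90 in KO, against 1.44, 1.18 and 2.70 in WT. Tlx1, needed for the spleen, was 3.15, 2.41 and 8.71 in KO, against 2.53, 2.07 and 2.71 in WT, with overlap. The sum of the 4 genes, most of it Nr2f2, was 45.4 to 76.2 in KO and 50.5 to 56.8 in WT, and none of the 4 was at the floor. In limma 0 of the 3 tested passed at an adjusted p of 0.05. In 1, Barx1, the unadjusted p was under 0.05, where 5.89% of tested genes were higher at that level. The part of spleen or mesenchyme in the mast cell values was not tested.

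Genes most like the mast cell profile were named by the Pearson correlation of log2(value + 1) over the 6 libraries with the mean of Cma1 and Cpa3, both of which had a mean of at least 1. Among 3159 other genes with such a mean and a range of at least 0.5, the correlation was over 0.9 in 38. The 8 highest were Hoxa7 (r = 0.981), an identifier without a symbol (ENSMUSG00000024380), Cd83, Six2, Abcc9, Hoxb8, Car15 and Kcnj8 (r = 0.966). Six2, a factor of kidney progenitors, was 4.50, 1.35 and 3.14 in KO, against 0.122, 0.119 and 0.387 in WT. Hoxa7 was 2.48, 1.203 and 2.71 in KO, against 1.003, 0.994 and 0.915 in WT. In these genes too KO 2 lay nearest to WT, but choosing them by this profile made that likely, so nothing is read from it. The points share genotype and library, so the correlation is a description.

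**Figure D5:**
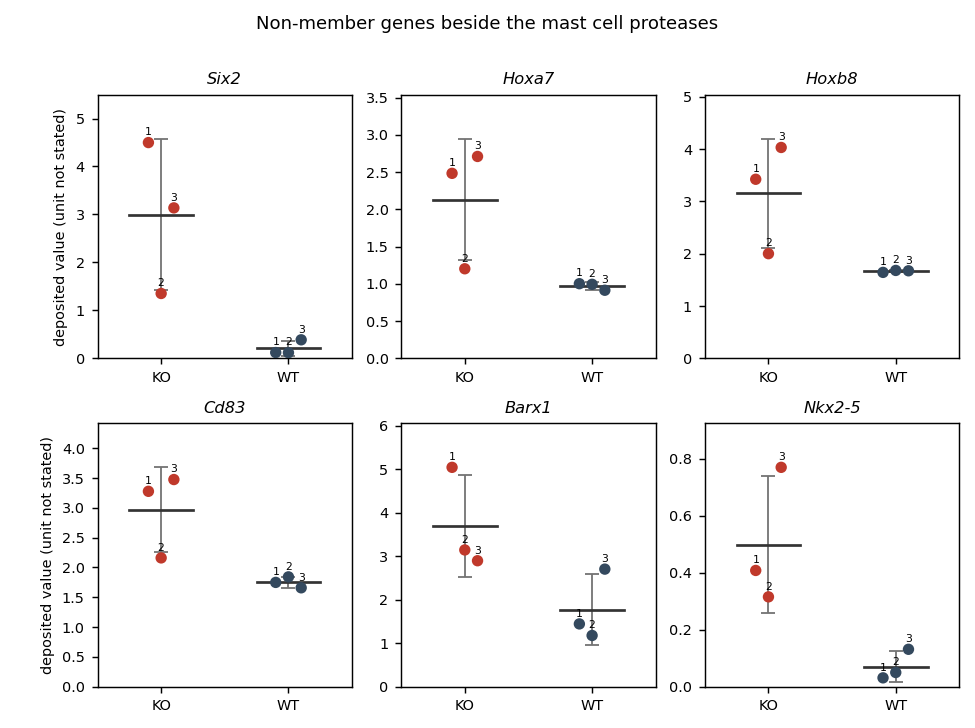
Deposited value (unit not stated, linear axis from 0 or below where an error bar reaches below 0) of 6 genes outside the chosen set in the 3 KO and 3 WT libraries, 4 of them named for their likeness to the mast cell profile and 2 from the spleen list. Points are libraries with their replicate number, horizontal lines are the mean and error bars the SD. In each gene shown all KO points lie above all WT points. Car15, also named for its likeness, and Tlx1 and Nr2f2 of the spleen list had overlapping groups and are not shown.

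The neutrophil profile was the mean of the 5 genes with a mean of at least 1. Its cutoff on range was higher than the 0.5 used for the mast cell profile, so the counts of like genes are not compared. Of 493 genes with a mean of at least 1 and a range of log2(value + 1) of at least 1, 0 had a correlation over 0.9, and the highest were 4930533K18Rik (r = 0.853), Bicc1 (r = 0.846) and Vnn1 (r = 0.827). The groups did not overlap in 4930533K18Rik and Bicc1 and overlapped in Vnn1. Others among the 8 highest were Calcr, Pkd2, Gm7931 and Trim30d. With genes down to a mean of 0.1 included, a choice made after seeing the data, 6 of 543 genes were over 0.9. They were Olfm4 (r = 0.993), Stfa3, Stfa2, Gm5483, Stfa2l1 and Chil3 (r = 0.922). Genes with a smaller range were left out, among them Ltf (r = 0.984).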

How the data were processed

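RNA from E13.5 dorsal pancreas was made into TruSeq v2 libraries, per the labels' protocols. This kit does not mark strand. The submitters' processing notes name CASAVA 1.82, Bowtie 0.12.7 and mm9. How reads were assigned to genes and normalized is not stated there. The deposited values are a signal per Ensembl gene, never negative, with a floor of 0.01. They are not counts, so no depth or counting error can be given. Symbols were found for 22624 identifiers (92.8%). Pairs of libraries had Pearson's r of 0.990 to 0.998 across genes, and none were identical.

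Genes with a mean of at least 1 were tested by limma 3.58.1 (R 4.3.3) on log2 of the value plus 1, two-sided, with a mean-variance trend, genotype as its one term and Benjamini-Hochberg adjustment at 0.05. This scale understates fold changes of low genes. Nothing says that replicates were separate animals, so a p measures the spread among these libraries, which may be technical. Of the granule genes, 5 of 6 neutrophil and 2 of 4 mast cell genes passed the filter, which Camp, Mcpt4 and Tpsb2 did not. The fit was tested on simulated data.

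The members and gene lists were chosen with earlier results of these data known. Genes named are all members, Bicc1, up to 4 genes of each list with the highest mean, genes past the threshold, and the 8 most like each profile, of which 1 is not reported here. Others were chosen after their values were seen. Python 3.11.15, numpy 2.4.6, pandas 2.3.3 and matplotlib 3.10.9 were used. Alternatives were other filters, pseudocount and scalings, a loess correction for GC content, the replicate number as a block, each library left out and values within a side of the first component.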

Additional observations from a re-analysis of the deposited data

How the results depend on the processing

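The log2 difference of each of the 10 granule genes kept its sign in 15 of 15 alternatives. These were a pseudocount of 0.1, 3 scalings, the block, the GC correction with and without the block, each library left out and both sides of the first component. Many of them could not have turned a sign. The block does not enter a difference of means. Where the groups do not overlap, in all but Cpa3, neither the pseudocount nor fewer libraries can turn it. Only the scalings and the GC correction could do so in those genes. The smallest differences were 0.07 for Tpsb2, with the GC correction (0.26 without it), and -0.34 for Camp. With the pseudocount of 0.1 the median was -2.40 for the neutrophil genes and 1.31 for the mast cell genes, against -1.46 and 0.54 with a pseudocount of 1. Within KO 1, KO 2 and WT 3 the neutrophil median was -2.31. With 1 library left out, the neutrophil median ranged from -1.70 (without WT 1) to -1.07 (without WT 3), and the mast cell median from 0.34 (without KO 1) to 0.78 (without KO 2). Filters do not enter these medians.

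The count of genes past the threshold over the whole table, 2, was 1 with no filter, 4 with the GC correction, 1 with the GC correction and replicate block, and from 1 to 8 with 1 library left out. It was 8 without KO 2, and 1 without KO 1, KO 3, WT 1 or WT 3. With the replicate block it was 0. The correlation of the deviations of libraries with the same replicate number was -0.22, -0.40 and -0.64. No library correlated best with the one of its own number. All positive correlations joined libraries on the same side of the first component. The deviations were not corrected for that component, so they cannot show whether the numbers pair the libraries in some smaller way. Of 285 counts of list genes lower in KO under the alternatives, 242 stayed within 1.5 times. Depth is unknown, so values near the floor of 0.01 cannot be told from no signal.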
